A study of Homo sapiens with 9 samples.

Results

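The genes described here code for 5 ectoenzymes, enzymes anchored in the plasma membrane with the active site facing the outside of the cell: ANPEP, DPP4, MME, NT5E and ENPP1. They were taken from the deposited table by gene symbol, are 5 of the 58735 genes listed there, and all 5 were among the 16350 genes that passed the filter on low counts. The choice was not blind. ANPEP and NT5E were chosen from their measured counts, because both were called higher than WT CDK9 in the inhibitor and the mutant comparisons, and the other 3 were added as their relatives. Differences from WT CDK9 are therefore given for the 5 genes as values, with their errors and without a p-value, and tests were kept for the direct comparison of the other two groups and for genes outside the set.

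RNA came from SKOV3, a human ovarian carcinoma cell line, in 3 groups of 3 libraries. The first group expressed WT CDK9, the kinase of the transcription elongation factor P-TEFb. The second expressed WT CDK9 and received an ALK inhibitor for 24 h, with the compound and dose of the RNA experiment not given in the sources used here. The third expressed Y19F CDK9, called Tyr19Phe CDK9 below, in which the tyrosine that the receptor tyrosine kinase ALK phosphorylates is replaced by phenylalanine, and no inhibitor is named for it. The study describes stable lines in which CDK9 was put back after knockdown, but whether the sequenced lines were made that way, and whether each is 1 clone or a pool, is not given in the sources used here, so a difference between the lines cannot be told apart from the mutation.

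Library totals ran from 18939449 to 19731228 counts with WT CDK9, from 18169050 to 20974903 with the inhibitor and from 26485891 to 29320184 with Tyr19Phe CDK9. Inhibitor replicate 2 (19944 genes with a count) and Tyr19Phe replicate 3 (20635) detected fewer genes than the other libraries of their groups (at least 21911 and 22609). CDK9 stood at 47.6 to 49.7 CPM (counts scaled to library size, with TMM factors) with WT CDK9, 43.8 to 47.3 with the inhibitor and 52.4 to 59.5 with Tyr19Phe CDK9, which cannot check the mutation because the counts do not separate the alleles. ALK had 0 to 5 counts per library. Of 8 ovarian carcinoma markers 7 were tested, with PAX8 and ERBB2 among them and MUC16 not, and their summed level was 5065 to 5705 CPM over all libraries. This sum hides single markers that moved in different directions from WT CDK9. ERBB2 rose with the inhibitor (log2 fold change 0.54, edgeR adjusted p = 2.96e-13) and fell with Tyr19Phe CDK9 (-0.29, adjusted p = 5.4e-08). KRT7 fell with the inhibitor (-0.35, edgeR adjusted p = 1.15e-08). With Tyr19Phe CDK9 EPCAM fell (-0.82, edgeR adjusted p = 1.76e-05) and KRT8 rose (0.38, adjusted p = 5.11e-10). PAX8 stayed near its WT level (-0.04 and -0.02). None of the 6 leukocyte markers passed the filter, LYZ had no count in any library, and their sum was at most 0.717 CPM. Of 4 endothelial markers 1 (KDR) was tested, and they summed to 0.975 to 2.62 CPM with WT CDK9, 1.29 to 1.95 with the inhibitor and 3.28 to 4.34 with Tyr19Phe CDK9, where CDH5 had 14 to 35 counts against at most 1 in any other library. The part of these markers in the results below was not tested.

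Ectoenzymes of this kind trim or degrade signals outside the cell. Aminopeptidase N (ANPEP, CD13), dipeptidyl peptidase 4 (DPP4, CD26) and neprilysin (MME, CD10) are peptidases that shorten peptide hormones and chemokines. CD73 (NT5E) turns extracellular AMP into adenosine, which signals through G protein-coupled receptors, and ENPP1 splits extracellular ATP to AMP and pyrophosphate and also hydrolyses cyclic GMP-AMP, the ligand of STING. ENPP1 therefore lies upstream of CD73 in the path from ATP to adenosine. All are surface markers on several stromal, epithelial or blood cell types, and CD73 and CD13 are both found on ovarian cancers.

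The genes lie on 4 chromosomes (hg38, positions of the deposited table). ANPEP (ENSG00000166825) is on the minus strand of chromosome 15 from 89784889 to 89815401, DPP4 (ENSG00000197635) on the minus strand of chromosome 2 from 161992241 to 162074542 and MME (ENSG00000196549) on the plus strand of chromosome 3 from 155024124 to 155183729. NT5E (ENSG00000135318) and ENPP1 (ENSG00000197594) are both on the plus strand of chromosome 6, from 85449584 to 85495791 and from 131808016 to 131895155. The canonical GENCODE 44 transcripts have 21 exons for ANPEP, 26 for DPP4, 23 for MME, 9 for NT5E and 25 for ENPP1, and code for 967, 766, 750, 574 and 925 amino acids. No gene of the table overlaps ANPEP or NT5E. DPP4 overlaps the antisense gene AC008063.1 (0 to 2 counts per library), MME overlaps MME-AS1 (no count), and ENPP1 overlaps AL139805.1 (0 to 9 counts), SELENOKP2 and RN7SKP245 (no count for either), so overlapping genes held few of the reads in the table. Reads that fall on 2 genes may have been left uncounted, which these counts cannot show.

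The sequences before the transcription starts of ANPEP, NT5E and DPP4 are shown because the RNA of the first pair was higher and that of the last was lower with Tyr19Phe CDK9. They are RefSeq promoter windows of GRCh38.p14, from 250 bases before to 50 bases after the start, written 5′ to 3′ on the strand of the gene. RefSeq gives ANPEP 2 starts. The first is that of the canonical transcript, and the second lies 8224 bases further on, inside exon 2 of that transcript. A distal and a proximal ANPEP promoter used by different cell types are textbook knowledge. Counts per gene do not separate these starts. The windows are chr15:89814803-89815102 and chr15:89806579-89806878 (both minus strand) for ANPEP, chr6:85449833-85450132 (plus strand) for NT5E and chr2:162074166-162074465 (minus strand) for DPP4. Capitals mark matches, on either strand, to 6 short motifs: the TATA core (letters TATAA), the GC box (GGGCGG), the CCAAT box (named by its letters), the core of the cyclic AMP response element (TGACGT), the E-box (CACGTG) and the AP-1 site (TGANTCA).
ANPEP first start: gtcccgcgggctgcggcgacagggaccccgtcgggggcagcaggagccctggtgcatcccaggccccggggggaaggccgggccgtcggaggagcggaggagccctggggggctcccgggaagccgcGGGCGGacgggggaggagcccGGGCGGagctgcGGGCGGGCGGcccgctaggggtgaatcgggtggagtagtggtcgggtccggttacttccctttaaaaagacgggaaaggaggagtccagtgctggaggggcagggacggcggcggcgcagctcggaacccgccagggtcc
ANPEP second start: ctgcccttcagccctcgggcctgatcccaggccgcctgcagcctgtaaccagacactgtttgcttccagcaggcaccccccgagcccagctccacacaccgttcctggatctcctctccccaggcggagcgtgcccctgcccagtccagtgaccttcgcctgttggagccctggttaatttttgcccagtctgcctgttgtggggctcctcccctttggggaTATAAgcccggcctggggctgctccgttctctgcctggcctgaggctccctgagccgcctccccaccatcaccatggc
NT5E: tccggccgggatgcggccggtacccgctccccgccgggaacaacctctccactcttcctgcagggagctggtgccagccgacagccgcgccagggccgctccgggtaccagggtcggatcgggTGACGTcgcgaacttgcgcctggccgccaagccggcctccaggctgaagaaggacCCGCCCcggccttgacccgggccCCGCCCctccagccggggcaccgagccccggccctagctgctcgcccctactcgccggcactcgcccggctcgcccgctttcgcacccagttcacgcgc
DPP4: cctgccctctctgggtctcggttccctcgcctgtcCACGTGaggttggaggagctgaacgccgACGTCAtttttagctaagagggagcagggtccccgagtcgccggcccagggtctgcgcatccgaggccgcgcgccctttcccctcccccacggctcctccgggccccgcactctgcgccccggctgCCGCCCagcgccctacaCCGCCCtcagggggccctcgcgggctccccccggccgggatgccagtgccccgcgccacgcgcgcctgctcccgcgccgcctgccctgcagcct

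Motif letters were chosen after the sequences had been seen. The window of the first ANPEP start held 4 GC boxes, at 123, 102, 90 and 86 bases before the start, the last pair overlapping, while the window of the second start held none and carried TATAA 28 bases before it. NT5E had GC boxes 72 and 49 bases before the start and TGACGT 127 bases before it. DPP4 had GC boxes at 61 and 44 bases, the reverse complement of TGACGT at 187 and CACGTG at 215 bases before the start. ENPP1 had 7 GC boxes in its window. MME had 4 windows, some of which overlap, with 2, 3, 2 and 0 GC boxes. The third also held a CCAAT box, and the last held the reverse complement of TGACGT 30 bases before its start. TGANTCA was in none of the windows of the 5 genes. Of 34796 distinct promoter windows, 44.9% held a GC box, 34.6% a CCAAT box, 20.5% a TATA core, 7.97% the cyclic AMP core, 7.73% an AP-1 site and 7.2% an E-box. The 3 windows shown with GC boxes all had a G+C content of 75%, against 65.3% at the second ANPEP start.

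Per kilobase of the deposited gene length, ANPEP and NT5E were the high members and MME the low one. Averaged over 9 libraries, ANPEP lay at percentile 93.1 of the tested genes on this scale, NT5E at 91.4, ENPP1 at 55.2, DPP4 at 46.9 and MME at 11.5. With WT CDK9 the levels were 23.3 CPM per kilobase for ANPEP, 22.3 for NT5E, 5.33 for ENPP1, 3.93 for DPP4 and 0.390 for MME. ANPEP and NT5E overlapped there (22.8 to 23.5 against 21.9 to 23.0), and the other neighbours in the order did not. The order of the means stayed the same in both other groups, with ANPEP above NT5E in each inhibitor library and the pair overlapping again with Tyr19Phe CDK9 (42.6 to 45.2 against 37.9 to 42.9 CPM per kilobase).

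A gene was called at an edgeR adjusted p under 0.05. Of the 5 genes, 2 were called with the inhibitor against WT CDK9, both higher, where 4.55% of all tested genes were called (1.82% higher and 2.73% lower). The libraries of 4 did not overlap, 2 higher and 2 lower, against 19.6% of all genes (9.31% and 10.3%). With Tyr19Phe CDK9, 3 were called, 2 higher and 1 lower, where 18.0% of all genes were called (7.61% and 10.4%), and the libraries of these 3 did not overlap, against 32.6% (15.4% and 17.2%). These counts follow in part from how the genes were chosen, and nothing is read from them. The direct comparison of Tyr19Phe CDK9 with the inhibitor leaves the WT libraries out of the difference. It called 3 of the 5, 2 higher and 1 lower, against 20.7% of all genes (9.57% and 11.1%), and the same 3 had libraries that did not overlap, against 34.4% (16.7% and 17.7%). Because the genes were chosen with their levels in both groups known, this comparison is not wholly independent of the choice. Over all tested genes the median log2 fold change was within 0.0035 of 0 in each comparison. The labels do not say that replicates were separate cultures, so the p-values measure the spread between these libraries, which may be technical.

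**Figure D1:**
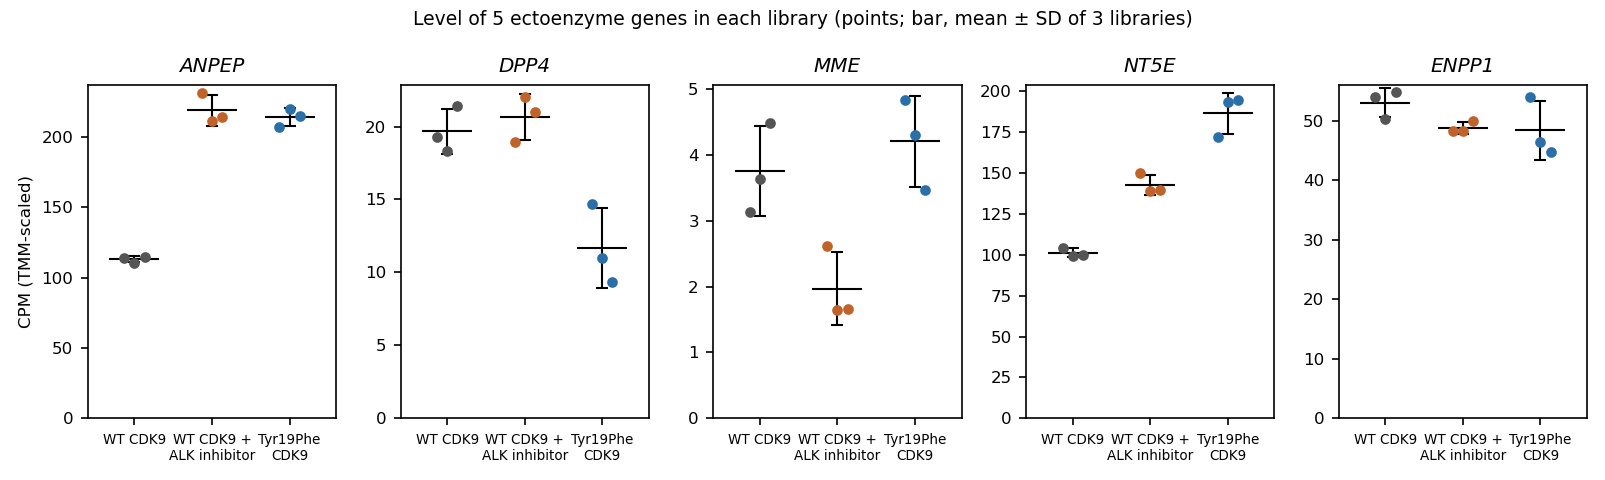
Level of each gene in each of the 9 libraries, in TMM-scaled CPM on a linear axis from 0, by group; points are libraries and bars the mean ± SD of 3. ANPEP is near 113 CPM with WT CDK9 and near 219 and 214 in the other groups, NT5E is at 101, 143 and 187 CPM, DPP4 is low with Tyr19Phe CDK9 (11.7), MME is low with the inhibitor (1.97), and ENPP1 lies between 44.8 and 54.9 in all libraries.

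ANPEP, whose product removes single residues from the amino end of peptides, stood at close levels in the inhibitor and Tyr19Phe groups, both far above WT CDK9. Its counts were 2230, 2100 and 2145 with WT CDK9, 4877, 3850 and 4150 under the inhibitor and 6122, 6184 and 5699 with Tyr19Phe CDK9. Scaled for depth these were 114.4, 110.8 and 114.6 CPM, then 231.5, 211.5 and 214.4 CPM, then 207.3, 220.1 and 215.0 CPM. Every inhibitor and Tyr19Phe library was above every WT library, and the first of the inhibitor libraries was the highest of all. Means were 113 ± 2.14, 219 ± 10.8 and 214 ± 6.43 CPM (SD, n = 3 each). The log2 fold change from WT CDK9 was 0.95 (SE 0.05), or 1.93-fold, for inhibitor treatment and 0.92 (SE 0.05), or 1.89-fold, for Tyr19Phe CDK9. Tyr19Phe CDK9 and the inhibitor differed directly by -0.03 (SE 0.05, 95% interval -0.13 to 0.06, edgeR adjusted p = 0.682), which limits the ratio of Tyr19Phe CDK9 to inhibitor to between 0.914 and 1.04. That sign turned to 0.0083 without inhibitor replicate 1.

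DPP4, whose product cuts dipeptides from peptides with proline or alanine in the second place, was low with Tyr19Phe CDK9 and near the WT level with the inhibitor. Counts were 376, 347 and 400 with WT CDK9, 399, 401 and 406 under the inhibitor and 434, 308 and 247 with Tyr19Phe CDK9, the last in deeper libraries. The levels were 19.3, 18.3 and 21.4 CPM, then 18.9, 22.0 and 21.0 CPM, then 14.7, 10.96 and 9.32 CPM. All Tyr19Phe libraries fell below all libraries of the other groups, which overlapped each other, and the Tyr19Phe libraries were the most spread. Means were 19.7 ± 1.57, 20.6 ± 1.57 and 11.7 ± 2.76 CPM (SD, n = 3 each). The log2 fold change from WT CDK9 was 0.07 (SE 0.14) with the inhibitor and -0.75 (SE 0.14) with Tyr19Phe CDK9. Directly, DPP4 was 1.77-fold lower with Tyr19Phe CDK9 than with the inhibitor (log2 fold change -0.82, SE 0.14, 95% interval -1.10 to -0.54, edgeR adjusted p = 3.94e-05, lower in 3 of 3 libraries). The lowest value came from Tyr19Phe replicate 3. With that library and inhibitor replicate 2 both left out, the direct difference was -0.63 (SE 0.15, edgeR adjusted p = 0.00476).

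MME, whose product cleaves short peptides such as enkephalins, natriuretic peptides and endothelins before hydrophobic residues, was the scarce member and was lowest with the inhibitor. Its counts were 61, 69 and 84 with WT CDK9, 55, 30 and 32 under the inhibitor and 143, 121 and 92 with Tyr19Phe CDK9. The levels were 3.13, 3.64 and 4.49 CPM, then 2.61, 1.65 and 1.65 CPM, then 4.84, 4.31 and 3.47 CPM. The inhibitor libraries lay below all others, and the WT and Tyr19Phe libraries overlapped. A level of 3 counts, taken as the floor, corresponds to 0.102 to 0.165 CPM in these libraries, so every value was above it. Means were 3.75 ± 0.687, 1.97 ± 0.554 and 4.21 ± 0.691 CPM (SD, n = 3 each). The log2 fold change from WT CDK9 was -0.92 (SE 0.30) with the inhibitor, which was not called, and 0.17 (SE 0.28) with Tyr19Phe CDK9, which ran from 0.054 (without Tyr19Phe replicate 1) to 0.318 (without WT replicate 3). Directly, MME was 2.13-fold higher with Tyr19Phe CDK9 than with the inhibitor (log2 fold change 1.09, SE 0.29, 95% interval 0.49 to 1.68, edgeR adjusted p = 0.00650, higher in 3 of 3 libraries).

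NT5E, the source of adenosine from AMP, was higher in both groups than with WT CDK9 and higher still with Tyr19Phe CDK9 than with the inhibitor. Its counts were 2034, 1879 and 1871 with WT CDK9, 3158, 2533 and 2704 under the inhibitor and 5080, 5428 and 5154 with Tyr19Phe CDK9. The levels were 104.4, 99.2 and 100.0 CPM, then 149.9, 139.1 and 139.7 CPM, then 172.0, 193.2 and 194.4 CPM. The 3 groups did not overlap. Means were 101 ± 2.79, 143 ± 6.05 and 187 ± 12.6 CPM (SD, n = 3 each). The log2 fold change from WT CDK9 was 0.50 (SE 0.06), or 1.41-fold, with the inhibitor and 0.88 (SE 0.05), or 1.84-fold, with Tyr19Phe CDK9. The direct difference was 1.31-fold (log2 fold change 0.38, SE 0.05, 95% interval 0.27 to 0.49, edgeR adjusted p = 1.90e-06, higher in 3 of 3 libraries). The direct test was thus passed by NT5E and not by ANPEP, and the difference between the 2 genes was not itself tested.

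ENPP1, whose product is 1 source of the AMP that CD73 can use, lay close to the same level in all groups. Its counts were 1052, 952 and 1027 with WT CDK9, 1016, 880 and 968 under the inhibitor and 1596, 1304 and 1187 with Tyr19Phe CDK9. The levels were 54.0, 50.2 and 54.9 CPM, then 48.2, 48.3 and 50.0 CPM, then 54.0, 46.4 and 44.8 CPM. The inhibitor libraries were just below the WT libraries, and the Tyr19Phe libraries overlapped both. Means were 53.0 ± 2.46, 48.9 ± 1.01 and 48.4 ± 4.95 CPM (SD, n = 3 each). The log2 fold change from WT CDK9 was -0.12 (SE 0.08) with the inhibitor and -0.13 (SE 0.08) with Tyr19Phe CDK9. The second value was -0.216 without Tyr19Phe replicate 1 and -0.0715 without Tyr19Phe replicate 3. The direct difference was -0.01 (SE 0.08, 95% interval -0.17 to 0.15, edgeR adjusted p = 0.940), and its sign changed without inhibitor replicate 3 (0.0059), Tyr19Phe replicate 2 (0.0195) or Tyr19Phe replicate 3 (0.0443).

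**Figure D2:**
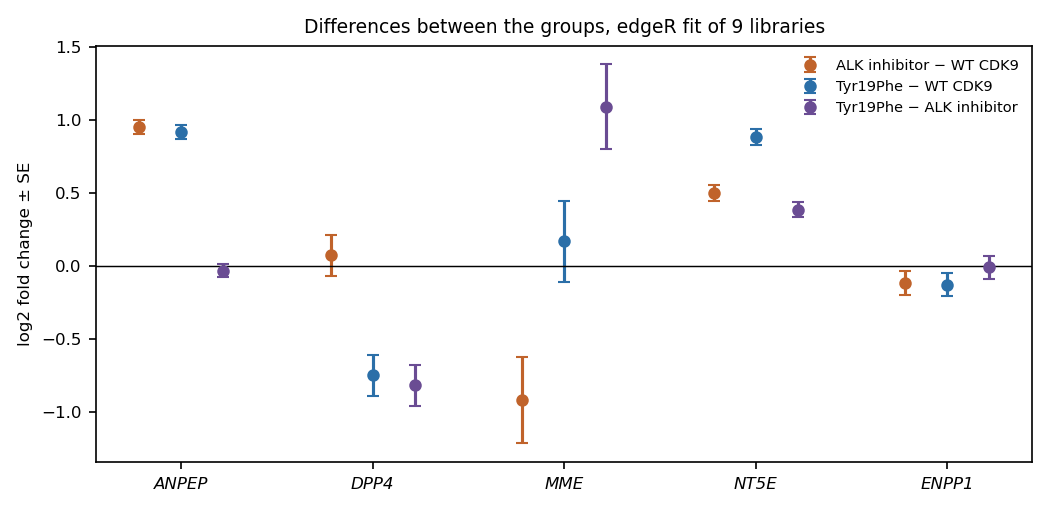
Log2 fold change (± SE) of the 5 genes for the inhibitor minus WT CDK9 (orange), Tyr19Phe minus WT CDK9 (blue) and Tyr19Phe minus the inhibitor (purple), from 1 edgeR fit of 9 libraries. ANPEP has like values of 0.95 and 0.92 and a direct difference near 0, NT5E is at 0.50, 0.88 and 0.38, DPP4 departs from 0 in the blue and purple points, and MME in the orange and purple ones.

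Weighed against each other within a library, the genes gave ratios that differed between groups, though not between all groups for each ratio. ANPEP to NT5E, per kilobase, was 1.02, 1.04 and 1.07 with WT CDK9, 1.44, 1.41 and 1.43 under the inhibitor and 1.12, 1.06 and 1.03 with Tyr19Phe CDK9, so the inhibitor libraries stood apart and the others overlapped. NT5E to ENPP1, per kilobase, was 4.0 to 4.34 with WT CDK9, 6.14 to 6.83 with the inhibitor and 6.99 to 9.54 with Tyr19Phe CDK9. DPP4 to MME, per kilobase, was 9.15 to 11.8, then 13.9 to 25.7, then 4.89 to 5.83, without overlap between groups. The 5 levels summed to 53.7 to 56.1 CPM per kilobase with WT CDK9, 83.5 to 89.5 with the inhibitor and 89.4 to 95.1 with Tyr19Phe CDK9, and ANPEP with NT5E made up 81.7% to 83.1%, 88.7% to 90.1% and 90.1% to 92.8% of that sum. These ratios are built from the same values as the fold changes and were not tested. ANPEP and NT5E were chosen for being above WT CDK9 in both other groups. The higher sum, share and NT5E to ENPP1 ratio there follow in part from that choice.

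Fibroblasts also carry CD13, CD73, CD26 and CD10, so their markers are given here. Of 5 fibroblast markers 2 (COL1A1 and COL1A2) passed the filter, and the 5 together were 110 to 113 CPM with WT CDK9, 124 to 162 CPM with the inhibitor and 38.1 to 51.7 CPM with Tyr19Phe CDK9. PDGFRB, DCN and LUM had at most 11 counts in any library. COL1A1 rose with the inhibitor (log2 fold change 0.35, edgeR adjusted p = 0.0111) and fell with Tyr19Phe CDK9 (-1.46, SE 0.09, edgeR adjusted p = 1.04e-13). COL1A2 rose with the inhibitor (0.70, edgeR adjusted p = 0.0210), and with Tyr19Phe CDK9 it was at 6.16 CPM against 6.49 CPM with WT CDK9 (-0.08, edgeR adjusted p = 0.844). COL1A1, at 104 CPM with WT CDK9, made up most of the sum. With the inhibitor the sum was higher, as ANPEP and NT5E were, whereas MME was lower and DPP4 was near the WT level. With Tyr19Phe CDK9 the sum was lower, as DPP4 was, whereas ANPEP and NT5E were higher. The part of these markers in the results for the 5 genes was not tested. In bulk RNA, fewer cells with a transcript and less transcript per cell cannot be told apart.

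The genes around the 5 loci had medians near 0 in the comparisons with WT CDK9. Within 5 Mb of ANPEP lay 50 other tested genes, with median log2 fold changes of -0.02 (inhibitor) and 0.05 (Tyr19Phe CDK9) and none above ANPEP in either comparison. NT5E had 37 such neighbours, with a median of 0.03 in both comparisons, and ranked 4 with the inhibitor and 1 with Tyr19Phe CDK9 when counted with them. The 32 neighbours of DPP4 had medians of 0.06 and -0.09, and in the direct comparison, where DPP4 stood at -0.82, their median was -0.24. The 40 neighbours of MME had medians of 0.01 and -0.03 and those of ENPP1, 30 in number, of -0.02 and -0.05. ANPEP and NT5E were chosen for their values in the comparisons with WT CDK9, so their ranks there follow from the choice and are a description. The nearest tested genes on the 2 sides were MESP2 and AP3S2 for ANPEP, AHCTF1P1 and IFIH1 for DPP4, DHX36 and PLCH1 for MME and LINC02535 and SNX14 for NT5E, and none of these 8 was called in any comparison. For ENPP1 they were MED23, not called, and CTGF, a secreted matrix protein, which fell with the inhibitor (log2 fold change -0.32, edgeR adjusted p = 2.47e-05) and with Tyr19Phe CDK9 (-0.40, edgeR adjusted p = 1.68e-07).

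**Figure D3:**
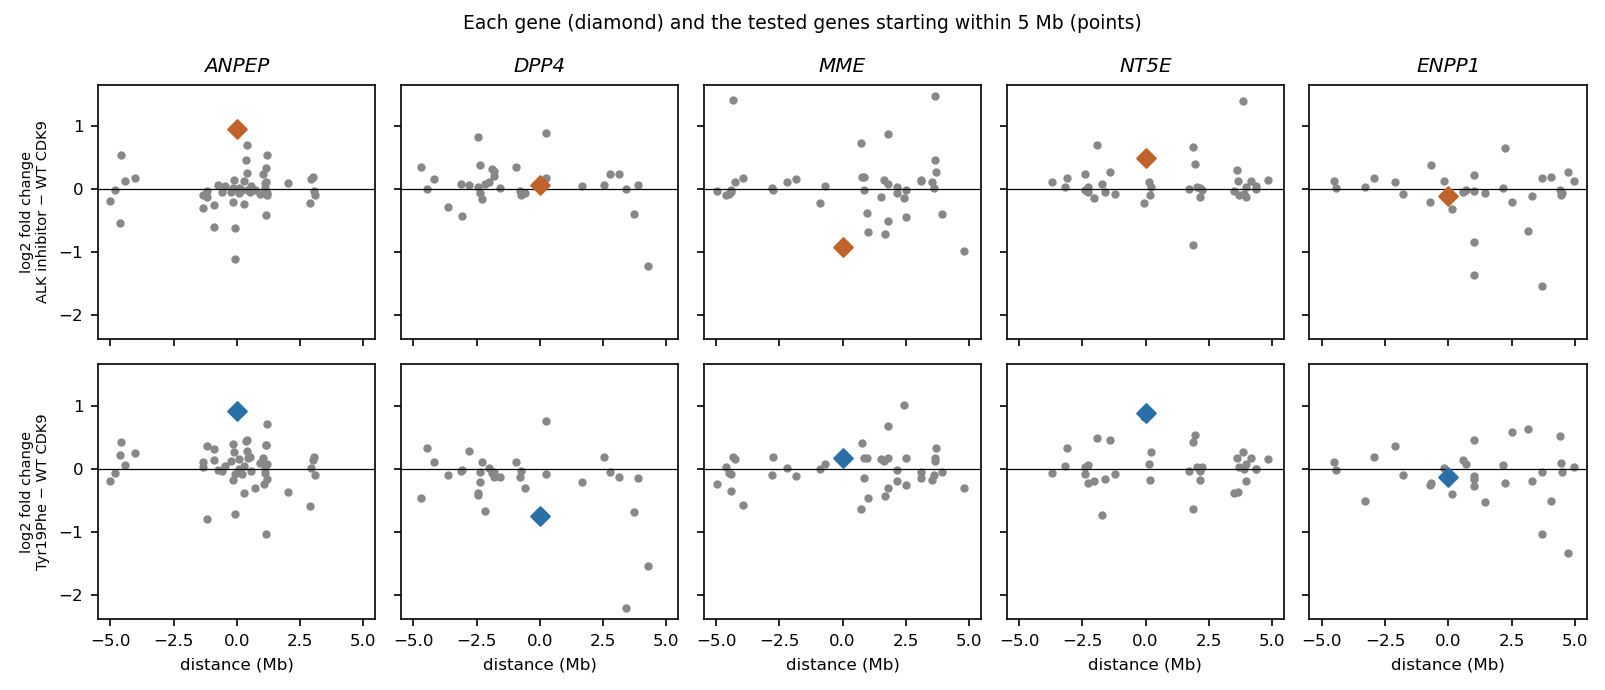
Log2 fold change from WT CDK9 of each ectoenzyme gene (diamond, at 0) and of the tested genes that start within 5 Mb (grey points) against distance in Mb, with the inhibitor above and Tyr19Phe CDK9 below. ANPEP lies above its 50 neighbours in both rows and NT5E above its 37 in the lower row, whereas ENPP1 lies among its 30.

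Across the 9 libraries ANPEP and NT5E had a Pearson r of 0.88 (log2 CPM), DPP4 and NT5E of -0.76 and MME and NT5E of 0.05. The 9 points are 3 groups of 3, and r mostly reflects the group means, so no p is given. ANPEP and NT5E were chosen because both were higher than WT CDK9 in both other groups. Their high r, and the pattern of the genes most like them, follow in part from that choice. Among 11141 tested genes that averaged 5 CPM or more, those most like ANPEP were ITGA5, an integrin subunit (r = 0.976), ADAM12, LHX1 and PGM2L1 (0.972 each). Those most like NT5E were PODXL (0.982), VEGFC (0.980), GJA1 (0.976) and RAB11B (0.976), which also went up from WT CDK9 over the inhibitor to Tyr19Phe CDK9, as in VEGFC, a lymphatic growth factor, at 8.0, 12.8 and 19.5 CPM. TBC1D1 (0.988), BNC2 (0.985), AAK1 (0.985) and RPS6KA3 (0.981) were most like DPP4, TMEM158 (0.966), NUAK1 (0.951), BUD23 (0.949) and CITED2 (0.943) most like MME, and TEC (0.926), SINHCAF (0.922), GORASP2 (0.915) and UXS1 (0.894) most like ENPP1. An r of at least 0.95 was reached by 40 genes for DPP4, 17 for NT5E, 10 for ANPEP, 2 for MME and none for ENPP1. The names depend on the measure: by Spearman's rho, none of the 4 was kept for ANPEP, DPP4 or NT5E, and 2 were for MME. Over the 2 alternatives run, of which Spearman's rho was 1, ANPEP kept 0 to 1 of the 4 and DPP4 kept 0. MME kept 1 to 2, and NT5E and ENPP1 each kept 0 to 3.

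Other genes of the same pathways were tested in 3 lists that leave the 5 out. Of 58 genes in the list of ectonucleotidase and adenosine genes 30 were tested. Of these, 3 were called with the inhibitor (10.0%; 2 higher, 1 lower), 6 with Tyr19Phe CDK9 (20.0%; 3 and 3) and 6 directly (20.0%; 2 and 4). Their median log2 fold changes were 0.09, 0.02 and -0.05. The list also holds nucleotide receptors, channels, phosphate transporters and genes of cyclic GMP-AMP signalling. Its calls with the inhibitor were SLC20A1, SLC20A2 and P2RY2, with no ectonucleotidase or adenosine gene among them. Of 38 surface peptidases and relatives 22 were tested, with 1 (4.55%, higher), 6 (27.3%; 4 and 2) and 5 (22.7%; 3 and 2) called and medians of 0.07, 0.04 and -0.02. Of 38 peptide substrates and receptors 8 were tested, with 3 (37.5%, all lower), 3 (37.5%; 1 and 2) and 4 (50.0%; 3 and 1) called and medians of -0.20, 0.14 and 0.35. This last list also holds CAV1, which is neither a substrate nor a receptor and was called lower in both comparisons with WT CDK9. Across all genes 4.55%, 18.0% and 20.7% were called. The lists were chosen with earlier results of these data known, so the shares are a description.

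Among the genes that act beside CD73 and ENPP1, the called one with the widest difference was ENTPD2. This enzyme gene, whose product degrades extracellular ATP, had 87, 110 and 114 counts with WT CDK9, 157, 125 and 118 under the inhibitor and 48, 47 and 44 with Tyr19Phe CDK9. It fell with Tyr19Phe CDK9 by 1.72 on the log2 scale (SE 0.25, edgeR adjusted p = 3.10e-06) and was lower than with the inhibitor by 2.04 (SE 0.24, adjusted p = 1.23e-07). LRRC8A, a subunit of the volume-regulated anion channel, which also carries cyclic GMP-AMP, rose with Tyr19Phe CDK9 by 0.61 (SE 0.05, edgeR adjusted p = 4.47e-10), and STING1, the receptor of cyclic GMP-AMP, by 0.54 (SE 0.12, adjusted p = 0.00088). Both were also higher than with the inhibitor (0.52 and 0.43, edgeR adjusted p = 6.93e-09 and adjusted p = 0.00601). CGAS, which codes for the enzyme that makes cyclic GMP-AMP, had at most 1 count in any library and was not tested. The phosphate transporter SLC20A1 rose with the inhibitor (0.31, edgeR adjusted p = 3.57e-05) and was lower with Tyr19Phe CDK9 than with the inhibitor (-0.30, adjusted p = 1.01e-05), while SLC20A2 fell with the inhibitor (-0.38, adjusted p = 3.22e-05) and with Tyr19Phe CDK9 (-0.22, adjusted p = 0.00471, lost without WT replicate 1, adjusted p = 0.0627). The channel gene PANX2 was lower with Tyr19Phe CDK9 than with the inhibitor (-0.47, edgeR adjusted p = 0.00326), a call lost with inhibitor replicate 2 and Tyr19Phe replicate 3 both left out (adjusted p = 0.0588).

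The remaining calls of this list were lost when single libraries were left out. P2RY2, a nucleotide receptor, was called higher with the inhibitor (0.37, edgeR adjusted p = 0.0469), but not without WT replicate 2 or 3, inhibitor replicate 2 or 3 or Tyr19Phe replicate 1 or 2 (adjusted p up to 0.240). SLC29A1, a nucleoside transporter, was called higher with Tyr19Phe CDK9 (0.16, edgeR adjusted p = 0.0429), but not without WT replicate 1 or 2 or any 1 of the Tyr19Phe libraries (adjusted p up to 0.234). ADK, which phosphorylates adenosine inside the cell, was called lower with Tyr19Phe CDK9 (-0.31, edgeR adjusted p = 0.0150), but not without WT replicate 1 or 2 or Tyr19Phe replicate 3 (adjusted p up to 0.153). PNP, a purine nucleoside phosphorylase, was called lower with Tyr19Phe CDK9 than with the inhibitor (-0.20, edgeR adjusted p = 0.0225), but not without inhibitor replicate 3 or Tyr19Phe replicate 2 or 3 (adjusted p up to 0.163).

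DPP8 and DPP9, intracellular relatives of DPP4, went in opposite directions with Tyr19Phe CDK9, with log2 fold changes of -0.24 (SE 0.06, edgeR adjusted p = 0.00545) and 0.24 (SE 0.05, adjusted p = 2.49e-04), and DPP9 was also higher than with the inhibitor (0.17, adjusted p = 0.00805). That last call was lost with inhibitor replicate 2 and Tyr19Phe replicate 3 both left out (edgeR adjusted p = 0.0824). CPD, a carboxypeptidase of the Golgi and the surface, fell with Tyr19Phe CDK9 (-0.33, edgeR adjusted p = 1.52e-06) and against the inhibitor (-0.37, adjusted p = 1.63e-07), and the lysosomal peptidase gene TPP1 rose with Tyr19Phe CDK9 (0.28, adjusted p = 0.00339). AOPEP, from the aminopeptidase family of ANPEP, was higher with Tyr19Phe CDK9 than with the inhibitor (0.42, edgeR adjusted p = 2.46e-05). Its call against WT CDK9 (0.21, adjusted p = 0.0293) was lost without any 1 of the WT libraries or Tyr19Phe replicate 1 (adjusted p up to 0.133).

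Of the other family members, ERAP2 was called higher with the inhibitor (0.22, edgeR adjusted p = 0.0250), but not without WT replicate 2 or inhibitor replicate 2 or 3 (adjusted p up to 0.183). LTA4H was called lower with Tyr19Phe CDK9 than with the inhibitor (-0.18, edgeR adjusted p = 0.0173), but not without inhibitor replicate 2 or 3 or Tyr19Phe replicate 1 (adjusted p up to 0.0827). RNPEP was called higher in that comparison (0.15, edgeR adjusted p = 0.0449), but not without WT replicate 1, inhibitor replicate 1 or 3 or any 1 of the Tyr19Phe libraries (adjusted p up to 0.138). Carboxypeptidase M, whose symbol is CPM, was called higher with Tyr19Phe CDK9 (0.48, edgeR adjusted p = 0.0460), but not without WT replicate 1 or 2, inhibitor replicate 1 or Tyr19Phe replicate 1 or 2 (adjusted p up to 0.245).

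Substrates of these peptidases include endothelins, which neprilysin degrades. EDN1, which codes for endothelin 1, moved in opposite directions in the 2 comparisons with WT CDK9. It had 2764, 2770 and 3025 counts with WT CDK9, 2238, 1689 and 1866 under the inhibitor and 6671, 6066 and 6222 with Tyr19Phe CDK9. The level fell with the inhibitor by 0.60 on the log2 scale (SE 0.06, edgeR adjusted p = 3.76e-09) and rose with Tyr19Phe CDK9 by 0.59 (SE 0.06, adjusted p = 1.27e-09), a direct difference of 1.19 (SE 0.06, adjusted p = 9.37e-17). EDN2 fell with the inhibitor (-1.50, SE 0.34, edgeR adjusted p = 0.00495), from 85 to 99 counts with WT CDK9 to 17 to 50. Its direct difference (1.05, adjusted p = 0.0240), with overlapping libraries, was lost without inhibitor replicate 2 or 3 or Tyr19Phe replicate 1 or 3 (adjusted p up to 0.177). With inhibitor replicate 2 and Tyr19Phe replicate 3 both left out, the edgeR adjusted p of this difference was 0.442. Among the receptors of natriuretic peptides, NPR1 fell with Tyr19Phe CDK9 (-1.42, SE 0.32, edgeR adjusted p = 0.00149) and was lower than with the inhibitor (-1.74, adjusted p = 1.19e-04). The direct call of NPR2 (0.64, adjusted p = 0.0422) was lost without any 1 of the 6 libraries compared (adjusted p up to 0.145). CAV1, whose product caveolin-1 binds DPP4, fell with the inhibitor (-0.21, edgeR adjusted p = 3.71e-05) and with Tyr19Phe CDK9 (-0.18, adjusted p = 1.17e-04).

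**Figure D4:**
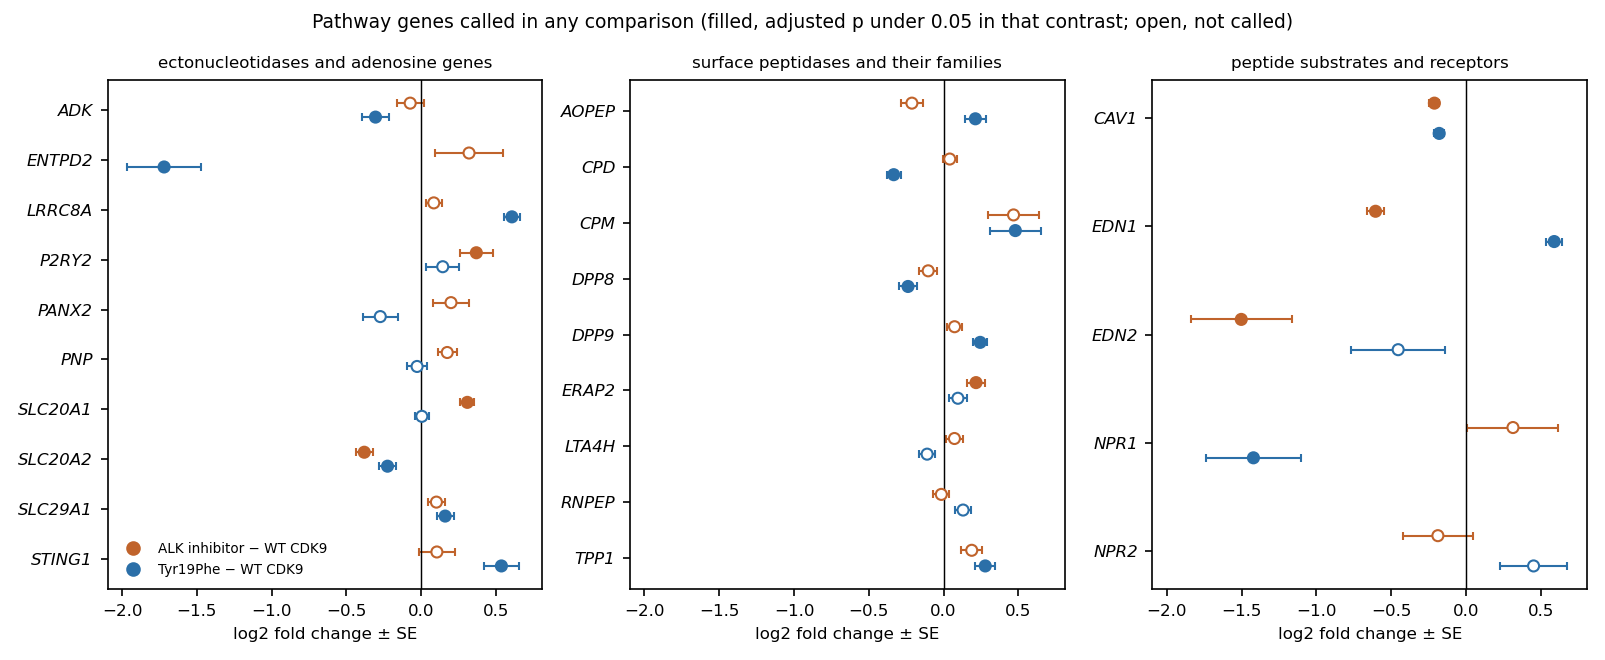
Log2 fold change from WT CDK9 (± SE) of the listed pathway genes that were called in any of the 3 comparisons, with the inhibitor (orange) and with Tyr19Phe CDK9 (blue); filled points were called in that comparison. ENTPD2 (-1.72) and NPR1 (-1.42) lie far left with Tyr19Phe CDK9, EDN2 (-1.50) with the inhibitor, and EDN1 has opposite signs (-0.60 and 0.59).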

How the data were processed

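RNA of 9 SKOV3 libraries was measured. The authors deposited whole-number read counts per gene, without normalization, beside gene positions and lengths. Submitters' processing notes name CASAVA, HISAT2 2.0.5, featureCounts 1.5.0-p3 and hg38; the annotation release and strandedness are not given in the sources used here, so antisense reads may be included. Groups came from the labels. Counts were fitted in R 4.3.3 with edgeR 4.0.16 (TMM, filterByExpr with a minimum count of 10 and total of 15, quasi-likelihood, 1 mean per group, 6 residual degrees of freedom), with Benjamini-Hochberg adjustment over 16350 genes and calls at an adjusted p under 0.05. Statistics scripts were tested on simulated data. DESeq2 1.42.0, other scalings and filters, and left-out libraries were alternatives. Library totals were 18169050 to 29320184 counts, and the 3-count floor covers counting error only.

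The members and lists were chosen with earlier results of these data known. Named were the 5 genes, up to 6 called genes per list, comparison and direction with the smallest adjusted p, the 4 genes with the highest Pearson r per member (log2 CPM, prior count 2), overlapping genes, the nearest tested neighbours, CDK9 and ALK. STING1 and AOPEP carry older symbols in the table. VEGFC values and motif letters were chosen after they were seen. Promoters came from RefSeq (GRCh38.p14) by symbol, matching all 5 genes, and transcript models from GENCODE 44.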

Additional observations from a re-analysis of the deposited data

How the results depend on the processing

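Of 255 member fold changes recomputed under 17 alternatives, 250 kept their direction and, where tested, their side of the threshold, and 141 of 153 list counts stayed within 1.5 times. The direct calls of NT5E, DPP4 and MME held in every alternative, with edgeR or DESeq2 adjusted p up to 6.18e-04, 0.00476 and 0.0385. Leaving out 1 library at a time, the direct log2 difference ran from -0.0582 to 0.0083 for ANPEP and from -0.101 to 0.0443 for ENPP1, whose calls did not change. Over the same fits the surface peptidases called with the inhibitor ran from 0 to 2 and directly from 3 to 5, and the peptide substrates and receptors called directly from 2 to 4. With inhibitor replicate 2 and Tyr19Phe replicate 3 left out together, an alternative added after seeing the data, ENPP1 was at 0.0362 directly, and these 3 counts were 0, 2 and 2. Fewer libraries enter those fits.

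Same-numbered libraries were not treated as paired, and the labels do not say whether they were. Across groups their deviations correlated between -0.012 and 0.026, and not every library correlated best with its own number. These values cannot show that no pairing existed. With the replicate as a block the calls numbered 818, 3076 and 3465 (744, 2940 and 3387 without), NT5E stood at 0.38 directly, and NPR2 lost its direct call. Within 1 Mb the neighbours of NT5E had a direct median of 0.10, against -0.04 within 5 Mb. The names of the genes most like each member changed in both alternatives run, of which Spearman's rho was 1. Depth limits MME above all, with 30 to 143 counts per library.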
